A study of Mus musculus with 11 samples.

Results

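The 5 samples described here are mammary tumours of MMTV-Neu+/- mice given DMBA, out of 11 tumours analysed in the series. They were chosen as all arrays whose labels name DMBA-treated tumour RNA, and they are called DMBA 1 to DMBA 5 in accession order. Each tumour RNA was hybridised on a 2-colour oligonucleotide array against an RNA labelled whole mouse reference. The other 6 arrays held untreated tumours of the same MMTV-Neu+/- genotype against the same kind of reference, and are given beside a result only where both values help. The labels give no age, dose, time or number of mice, so it is not known whether each tumour came from its own mouse. Each p-value below therefore rests only on the scatter of these samples, part of which may be technical. A number in the title of DMBA 3 recurs in that of DMBA 4, without explanation in the labels.

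Neu is the rat form of Erbb2, a receptor tyrosine kinase of the epidermal growth factor receptor family that needs no ligand of its own and signals in pairs with its relatives. The MMTV promoter drives it in the mammary epithelium, so the transgene models a luminal, receptor-driven tumour rather than the whole gland. DMBA is a polycyclic aromatic hydrocarbon that activates the aryl hydrocarbon receptor and is oxidised into products that form DNA adducts. A whole mouse reference holds RNA of liver, muscle, brain, skin and the other organs, and gives every gene a common baseline. Where a feature gives signal, a log2 ratio of 0 thus means the level of the average mouse RNA and not absence. A low ratio may belong to a gene that another organ uses heavily.

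The table of the DMBA-treated tumours held 45220 features, of which 33653 carried a single gene symbol, and averaging the features that shared a symbol left 19087 genes. Ratios are given as log2 of tumour over reference. The dye field of the tumour channel does not name a dye, so the direction was read from organ genes: 14 of 14 liver, 15 of 15 skeletal muscle and 12 of 14 brain genes were called lower, which makes tumour over reference the likely direction. Array medians over features lay between -0.013 and 0, and pairwise correlations over features between 0.789 and 0.856. The highest was that of DMBA 3 with DMBA 4, whose titles share a number. The next was 0.839, of DMBA 1 with DMBA 4. The number of arrays limits the precision, since the spot signals behind the ratios were not used. A gene was called when its Benjamini-Hochberg adjusted p in limma was under 0.05 and its mean log2 ratio lay at or beyond 1 or -1. By this rule 1580 genes, 8.28% of those tested, were called higher than the reference and 3581 genes, 18.8%, were called lower. All 5 tumours lay on one side of 0 for 5065 of the 5161 called genes.

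Markers of other cells were read from the same arrays. The luminal list had 7 of 14 measured genes called higher and 4 lower, and its median per tumour ran from 1.13 to 1.92. Epcam had a mean log2 ratio of 3.23 ± 0.17 (SD, n = 5 here and wherever a mean is given) and Krt8 2.34 ± 0.15, while Krt19 was at -3.50 ± 0.67 and Foxa1 at -1.38 ± 0.33. All 14 fibroblast markers, all 11 neutrophil markers, all 7 erythroid markers and 11 of 13 adipocyte markers were called lower, with tumour medians from -3.72 to -2.55, -3.02 to -2.56, -3.14 to -2.58 and -4.42 to -3.73. Of the basal markers, 10 of 14 were called lower and 1 higher. Macrophage markers lay near the reference, with 1 of 12 called higher, 2 called lower and tumour medians from -0.24 to 0.16. T and NK cell markers had 1 of 13 called higher and 4 lower, with tumour medians from -1.06 to -0.12, and B and plasma cell markers had 0 of 9 called higher in limma, with 2 above 0 at an unadjusted p under 0.05, and 3 lower. In bulk RNA a smaller share of cells of a type and less RNA per cell cannot be told apart, which touches every list below.

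The highest genes outside the milk, keratin, collagen, organ and cell marker genes were led by a chloride channel subunit. Gabrp, the pi subunit of the GABA-A receptor, had log2 ratios of 5.29, 5.10, 5.51, 5.51 and 5.82 in DMBA 1 to DMBA 5, a mean of 43.6 times the reference (adjusted p = 9.9e-07). Ano1, the calcium-activated chloride channel anoctamin 1, had 5.51, 4.68, 4.98, 4.85 and 4.72 (adjusted p = 1.12e-06). Both were high in every tumour, with an SD of 0.27 and 0.34. Untreated tumours in their own table had 3.60 to 4.92 for Gabrp and 4.10 to 4.59 for Ano1.

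C5ar2, a receptor for the complement fragment C5a, had 5.50, 5.69, 5.58, 5.77 and 3.74 in DMBA 1 to DMBA 5 (adjusted p = 1.12e-05). DMBA 5 was the low tumour, though still far above the reference. Apol9a, an apolipoprotein L family member, spread more widely, with 2.77, 6.05, 4.56, 4.83 and 6.66 (adjusted p = 0.000212). DMBA 1 was its lowest tumour and DMBA 5 its highest. Slc28a3, a sodium-coupled nucleoside transporter, had 2.75, 5.30, 4.04, 4.02 and 4.69 and shared DMBA 1 as its low tumour.

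Further genes among the 25 highest were Alkal2, a ligand of the receptor kinases Alk and Ltk, at 4.76 ± 0.62, Plet1, an epithelial surface protein, at 4.71 ± 0.23, and Acsl4, which activates arachidonic acid, at 4.48 ± 0.28. Tfap2c, the transcription factor AP-2 gamma, had 4.26, 4.22, 4.39, 4.42 and 3.71 in the 5 tumours. Hey1, a target of Notch signalling, was steady at 3.75, 3.68, 3.96, 3.79 and 4.14. Lrp5, a co-receptor of Wnt ligands, averaged 3.99 ± 0.38, and H2-D1, a classical MHC class I heavy chain, 3.95 ± 0.34. Derl3, which takes part in disposal of misfolded proteins from the endoplasmic reticulum, averaged 3.89 ± 0.58, with its highest value in DMBA 5. The remaining genes of the 25 were Mansc1, Tc2n, Itprid1, Muc20, Macc1, Bcl2l14, Flvcr2, Klc3, Aldoc, Aqp5, Slc12a2 and Galnt3, with means between 3.81 and 4.58.

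**Figure D1:**
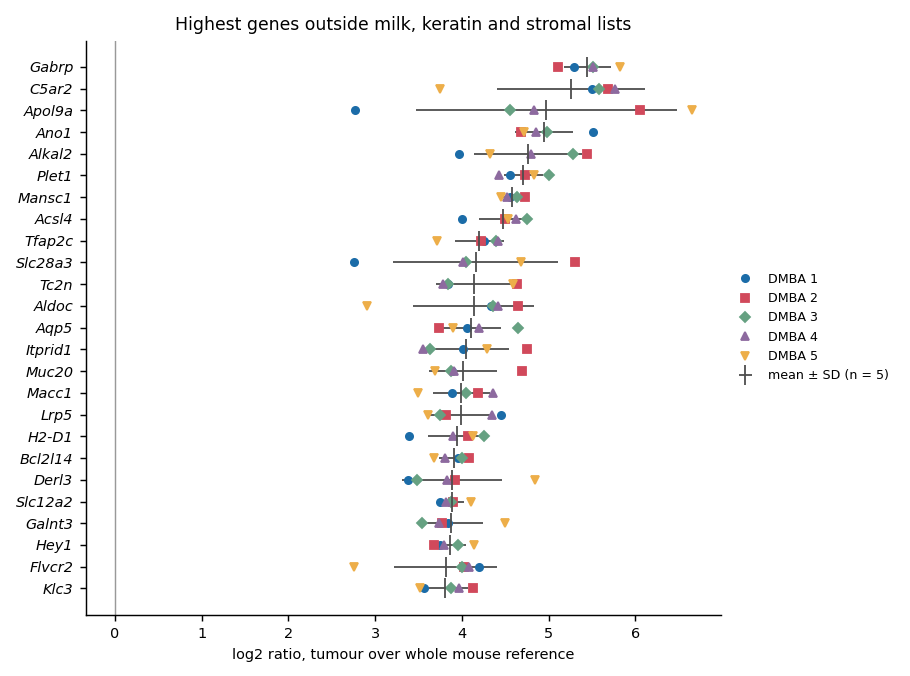
Log2 ratio of tumour over whole mouse reference (x axis) for the 25 highest called genes outside the milk, keratin, collagen, organ and cell marker genes (rows), with 1 coloured symbol per DMBA-treated tumour and a vertical tick with a bar for the mean ± SD of 5 tumours. The lowest single values are 2.75, for Slc28a3 in DMBA 1 and Flvcr2 in DMBA 5, and the widest spread is that of Apol9a, from 2.77 to 6.66.

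Outside the same genes, the lowest gene was Itm2a, and several of the 15 lowest are known from liver, muscle or skin. Itm2a, known from muscle, cartilage and lymphoid cells, had -6.41, -7.21, -7.49, -7.84 and -7.41 in the 5 tumours, a reference level 154 times the tumour mean. Afp, the fetal albumin-like protein, had -6.96 ± 0.47 over 10 features, and Fabp1, the liver fatty acid binding protein, -6.75 ± 0.46. Pck1, the entry enzyme of gluconeogenesis, averaged -6.63 ± 0.47 in DMBA-treated tumours and -3.53 ± 0.23 in the 6 untreated tumours of the other table, a gap that was not tested. Fhl1 and Atp1b4, both known from muscle, averaged -6.16 ± 0.89 and -7.11 ± 0.47. Sostdc1, a secreted antagonist of BMP and Wnt signals, was at -6.74, -5.54, -6.69, -6.45 and -6.58.

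The 15 lowest outside those genes also held Cstdc6 and Stfa3, which are small cysteine protease inhibitors, Kprp of cornified skin, Cfi, Aadac, Apoh and Cyp4a14, which are known from liver, and Eif2s3y. The last is encoded on the Y chromosome and had -5.84 ± 0.50, with -2.003 ± 0.47 for Kdm5d and -1.06 ± 0.23 for Uty, while Xist, made from the inactive X chromosome, had 1.49 ± 0.23. Of 7 measured female and male specific transcripts, 1 was called higher, 3 were called lower and 3 were not called. The labels do not give the sex of the mice in the reference.

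Upstream sequence was read for the called genes from RefSeq on GRCm38.p6, as the 250 bases before the annotated start. A window was found for 15306 of the tested genes, 1246 of those called higher and 2763 of those called lower. The windows of 4 genes from both ends of the ranking are shown, in lower case, with every match to a searched motif in capitals, to let the reader see the base composition and the few matches behind the counts.
Gabrp, chr11:33578958-33579207, minus strand: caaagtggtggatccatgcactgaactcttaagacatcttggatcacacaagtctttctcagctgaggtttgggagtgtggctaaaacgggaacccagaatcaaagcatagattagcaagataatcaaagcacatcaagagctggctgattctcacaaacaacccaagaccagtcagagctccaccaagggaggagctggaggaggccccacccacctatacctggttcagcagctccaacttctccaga
Apol9a, chr15:77411081-77411330, minus strand: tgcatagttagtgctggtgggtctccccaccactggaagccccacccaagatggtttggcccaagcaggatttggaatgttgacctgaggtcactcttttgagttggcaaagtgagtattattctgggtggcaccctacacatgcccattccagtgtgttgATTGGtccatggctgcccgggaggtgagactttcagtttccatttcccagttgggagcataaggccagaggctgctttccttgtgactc
Ano1, chr7:144738574-144738823, minus strand: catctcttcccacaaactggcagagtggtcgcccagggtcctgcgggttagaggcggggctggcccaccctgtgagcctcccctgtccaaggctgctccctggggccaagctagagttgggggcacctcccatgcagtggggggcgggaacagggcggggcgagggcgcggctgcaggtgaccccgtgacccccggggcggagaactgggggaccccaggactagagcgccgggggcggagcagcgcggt
Atp1b4, chrX:38315872-38316121, plus strand: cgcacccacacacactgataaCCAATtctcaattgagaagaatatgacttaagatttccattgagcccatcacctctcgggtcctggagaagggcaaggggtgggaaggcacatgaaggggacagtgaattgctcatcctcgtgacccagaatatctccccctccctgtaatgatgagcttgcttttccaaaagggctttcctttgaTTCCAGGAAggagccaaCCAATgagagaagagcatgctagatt
Apol9a has 2 annotated start windows, of which the first is shown. It holds a CCAAT box on the minus strand, printed as ATTGG, and the Atp1b4 window holds 2 CCAAT boxes and 1 GAS match. The windows of Gabrp and Ano1 hold none of the letters searched and differ in GC content, at 49.2% and 72.0%. The first window of C5ar2 and the window of Itm2a were read as well, are not shown and hold no match.

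Motifs were counted on both strands, no motif contains another, and all shares are descriptions. The core of the element bound by the aryl hydrocarbon receptor, TNGCGTG, stood in 6.26% of windows of genes called higher, 4.27% of those called lower and 5.33% of all tested. The STAT element TTCNNNGAA stood in 5.70%, 6.41% and 6.70% in the same order. For the AP-1 element TGANTCA the shares were 5.94%, 7.02% and 5.98%, and for CCAAT 37.1%, 34.8% and 36.0%. The E-box CACGTG stood in 6.82%, 6.08% and 7.13%. The ETS element ACCGGAAG was the rarest, with 1.69%, 0.905% and 2.40%. Median GC content was 58.8% for genes called higher, 56.0% for genes called lower and 56.8% for all.

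The gene whose rat form is the transgene of these mice was above the reference in every tumour. Erbb2 had 1.36, 1.70, 1.62, 1.59 and 1.32 in DMBA 1 to DMBA 5, a mean of 2.86 times the reference (adjusted p = 2.5e-05). Its 11 features did not give one value: 10 of them averaged between 0.93 and 1.39, and 1 averaged 4.54. Whether a feature reads the rat transgene, the mouse gene or both is not stated. In the ERBB list 6 of 20 measured genes were called higher (30%) and 3 lower (15%). The list median was 0.24 against -0.02 over all genes. Egf, a ligand of the EGF receptor, had 2.33, 2.47, 1.70, 2.001 and 2.11. Tgfa, another ligand of that receptor, had 1.76, 1.90, 1.95, 1.99 and 1.48. Both were above the reference in all 5 tumours, lowest in DMBA 3 for Egf and in DMBA 5 for Tgfa. Grb7, an adaptor whose gene neighbours Erbb2, averaged 1.22 ± 0.31. Of the neuregulins, ligands of Erbb3 and Erbb4, Nrg4 averaged -1.27 ± 0.35 and Nrg3 -1.996 ± 0.72, and the EGF receptor ligand Hbegf -1.12 ± 0.28.

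Downstream of the receptor, 5 of 22 measured PI3K, AKT and mTOR genes were called higher (22.7%) and 1 lower (4.55%). Without DMBA 2, 3 of them were called higher. Pik3r1, the p85-alpha regulatory subunit, had 2.35, 2.25, 2.17, 1.43 and 1.71. Deptor, an inhibitor of mTOR, had 2.28, 2.32, 1.79, 1.496 and 1.96. DMBA 4 was the lowest tumour for both genes. Pik3cb, a catalytic subunit, averaged 1.11 ± 0.20, and Sesn1, a p53-responsive inhibitor of mTORC1, -1.10 ± 0.12.

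Of 29 measured JAK, STAT and SOCS genes, 10 were called higher (34.5%) and 3 lower (10.3%), with a list median of 0.34. Stat5a, which carries prolactin signals in the mammary gland, had 2.80, 2.72, 2.73, 2.48 and 2.21 (adjusted p = 4.14e-06). Socs2, a feedback inhibitor of growth hormone and prolactin signalling, had 2.69, 2.96, 2.66, 2.58 and 2.08. Both were lowest in DMBA 5. Socs5 averaged 2.14 ± 0.48. The list also counts Il17re, an IL-17 receptor family member, among the genes called higher, with the highest mean of the list, 2.82 ± 0.36. Lower genes were Socs3, the feedback inhibitor of IL-6 family signals, at -1.69 ± 0.42, Il6st, the gp130 receptor chain of that family, at -1.43 ± 0.32, and the growth hormone receptor Ghr at -1.53 ± 0.34. The members called lower thus included a cytokine receptor chain and its inhibitor.

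FGF and ephrin, semaphorin and plexin genes were called lower more often than all genes, while Hedgehog genes were called lower about as often. Of 26 FGF ligands and receptors, 11 were called lower (42.3%) and 0 higher, with a list median of -0.76. No FGF gene was called higher in limma with all 5 tumours, and 1 was without DMBA 3 or without DMBA 5; 5 had a positive mean at an unadjusted p under 0.05. Fgf18 averaged -3.74 ± 0.77, Fgf5 -2.62 ± 0.75 and Fgf10, a mesenchymal ligand of the mammary bud, -2.41 ± 0.29. In the untreated tumours of the other table the same genes averaged -2.70, -0.10 and -0.29, with no test. The signal behind the values near 0 is not known. Of 15 Hedgehog genes, 3 were called lower (20%) and between 0 and 2 were called higher depending on the tumours used. Hhip, the decoy of Hedgehog ligands, had -3.29, -1.65, -3.21, -3.61 and -3.09, with DMBA 2 nearer the reference than the rest. The ligand gene Shh averaged -2.66 ± 0.23 and Gas1, a co-receptor, -1.80 ± 0.46. Untreated tumours of the other table averaged -0.46 for Shh and -1.78 for Gas1, with no test. Of 44 ephrin, semaphorin and plexin genes, 17 were called lower (38.6%) and 3 higher. Epha2, a receptor of ephrin-A ligands, stood out from its list at 3.50, 3.73, 3.27, 2.87 and 3.41, lowest in DMBA 4. The lowest were Plxna2, Sema3d, Epha3 and Sema3c, with means from -3.12 to -2.63. Fibroblast markers were also low against the reference, as given above, and their part in the result was not tested.

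Of 30 cyclin, CDK inhibitor and E2F genes, 11 were called lower (36.7%) and 2 higher (6.67%). The CDK inhibitor Cdkn1c, which is imprinted, had -4.11, -3.75, -3.99, -3.83 and -4.71. Cdkn1a, the p21 gene that p53 induces, had -2.81, -1.67, -2.53, -2.91 and -1.28. DMBA 5 was the lowest tumour for Cdkn1c and the one nearest the reference for Cdkn1a. Ccnd2 averaged -2.82 ± 0.17, and Mycl -2.51 ± 0.35. Untreated tumours of the other table averaged -3.03 for Ccnd2 and -0.07 for Mycl, with no test and with the signal for Mycl unknown. Ccnd1, which luminal cells use and which was not called, averaged 0.68 ± 0.13 with every tumour between 0.51 and 0.82. Myc was called at 1.08 ± 0.47, but its mean was 0.93 without DMBA 2, and Cdkn2a at 1.05 ± 0.48 had means of 0.88 without DMBA 1 and 0.98 without DMBA 5. With 1 feature per gene the Cdkn2a mean was 0.38 and its call was lost (limma, adjusted p = 0.309).

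Genes of DNA replication lay close to the average mouse RNA. Of 29, 1 was called higher, 2 lower and 26 were not called, below the shares of all genes. Gins4, a subunit of the replicative helicase complex, averaged 1.23 ± 0.21, Cdt1, which loads the helicase, -1.28 ± 0.16, and Orc6 of the origin complex -1.07 ± 0.20. Ribosome biogenesis and translation factors were closer still, with 28 of 29 not called and a list median of 0.02. The exception Eif4e, the cap-binding factor, had -1.16, -1.12, -1.02, -0.95 and -1.04, and without DMBA 5 there were 2 called lower.

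Of 35 DNA repair and checkpoint genes, 31 were not called and the list median was 0.26. The called ones sat at the threshold. Ercc2, a helicase of nucleotide excision repair, averaged 1.31 ± 0.998, but DMBA 3 alone was at 3.03 and the mean without it was 0.88. Ogg1, which excises oxidised guanine, averaged 1.03 ± 0.24 and had 0.99 without DMBA 2 and 0.96 without DMBA 4. Polh, a polymerase that copies across damaged bases, averaged 1.01 ± 0.24 and had 0.98 without DMBA 3 and 0.92 without DMBA 5. Rev3l, at -1.01 ± 0.17, had features on both sides of 0 and was at -2.45 with 1 feature per gene, and its mean was -0.97 without DMBA 3 and without DMBA 4.

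Apoptosis genes were called higher more often than all genes, with 8 of 29 higher (27.6%) and 2 lower (6.90%). Casp12 averaged 3.78 ± 0.99. Casp1, which cleaves interleukin-1 beta, had 3.63, 3.82, 3.56, 3.40 and 2.64, lowest in DMBA 5. Both belong to the inflammatory caspases. Bik, a BH3-only promoter of cell death, had 2.07, 2.06, 2.20, 1.38 and 2.23, with DMBA 4 below the rest. Bid averaged 1.40 ± 0.13. Bok, a BAX-like protein, was called lower at -2.11 ± 0.42.

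Glucose metabolism showed isoform differences against the reference. Of 35 genes, 6 were called higher (17.1%) and 13 lower (37.1%), with a list median of -0.42. Slc2a1, the widely used glucose transporter GLUT1, had 2.41, 3.16, 2.41, 2.74 and 3.27, higher in DMBA 2 and DMBA 5 than in the others, while Slc2a4, the insulin-responsive transporter of muscle and fat, averaged -4.19 ± 0.29. Aldoc had 4.34, 4.65, 4.36, 4.42 and 2.91, with DMBA 5 the low tumour. Hk1 averaged 2.28 ± 0.20 and Pfkl, the liver-type phosphofructokinase, 2.27 ± 0.29. The muscle enzymes Eno3 and Pgam2 averaged -5.69 ± 0.40 and -4.10 ± 0.37, and Pdk4, which blocks pyruvate oxidation, -4.79 ± 0.55.

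Fatty acid oxidation and respiratory chain genes were called lower more often than all genes. Of 29 fatty acid oxidation genes, 16 were called lower (55.2%) and 1 higher, with a list median of -1.07 and tumour medians from -1.21 to -1.02. Acaa2, the mitochondrial thiolase, had -2.91, -2.82, -3.01, -3.08 and -2.91, much alike in the 5 tumours. Cpt1b, the muscle carnitine palmitoyltransferase, averaged -2.87 ± 0.30, and Acadm -2.09 ± 0.24. Acox2, a peroxisomal oxidase of branched chains, was the single gene called higher, at 1.54, 1.26, 1.17, 1.40 and 2.02, highest in DMBA 5. Of 47 respiratory chain and ATP synthase genes, 16 were called lower (34.0%) and 0 higher in limma, with 0 genes above 0 at an unadjusted p under 0.05. Cox6a2, Cox8b and Cox7a1, isoforms of muscle and brown fat, averaged -4.84 ± 0.43, -4.37 ± 0.47 and -2.43 ± 0.49. Cyc1, cytochrome c1 of complex III, had -2.18, -2.04, -2.13, -2.22 and -2.14, a narrow spread. Skeletal muscle genes were also low against the reference, as given in the opening, and their part was not tested.

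Lipid synthesis went both ways, with 6 of 34 genes called higher (17.6%) and 9 lower (26.5%). Me1, malic enzyme, had 3.06, 3.29, 2.79, 2.63 and 3.08. Srebf1, the transcription factor of fatty acid synthesis genes, had 2.85, 2.80, 3.13, 2.58 and 2.38. The lowest tumour was DMBA 4 for Me1 and DMBA 5 for Srebf1. Scd1, the stearoyl-CoA desaturase, averaged 1.99 ± 0.52, and Dhcr7 of cholesterol synthesis 1.44 ± 0.48. Elovl4 and Elovl2, which build very long chains, averaged -4.42 ± 0.24 and -3.20 ± 0.38. Elovl3 was above the reference in DMBA 5 alone, at 1.07, with the other 4 tumours between -2.30 and -1.86. It was called lower with all 5 tumours, but not when any of DMBA 1 to DMBA 4 was left out, with adjusted p between 0.11 and 0.129 in limma.

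Of 36 amino acid transporters, 17 were called lower (47.2%) and 3 higher. Slc7a4 averaged 1.69 ± 0.26, Slc6a14 1.12 ± 0.34 and Slc7a5, the large neutral transporter LAT1, 1.13 ± 0.51; without DMBA 5 the means of Slc6a14 and Slc7a5 were 0.98 and 0.99. Slc38a5 had -4.24, -3.63, -4.37, -4.28 and -3.93, far below the reference in every tumour. Slc36a2 and Slc38a4 averaged -3.90 ± 0.40 and -3.60 ± 0.26. One-carbon genes gave 6 of 19 called lower (31.6%) and 0 higher in limma, with 5 positive at an unadjusted p under 0.05. The lowest were the liver enzymes Cth, Mat1a and Gnmt at -3.48 ± 0.18, -3.14 ± 0.28 and -2.93 ± 0.16. In the polyamine and arginine list 6 of 20 were called lower (30%). Among them was Odc1, the entry enzyme of polyamine synthesis, at -1.47, -1.33, -1.75, -1.76 and -2.28, lowest in DMBA 5. Arg1, arginase 1, was called higher at 0.65, 1.42, 1.85, 1.85 and 1.02, with DMBA 1 nearest the reference. Without DMBA 1, DMBA 4 or DMBA 5, 2 genes of that list were called higher.

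Glutathione and NRF2 genes were called lower and higher at shares near those of all genes, which were 18.8% and 8.28%. Of 41 such genes, 9 were called lower (22%), 2 higher (4.88%) and 30 were not called. Without DMBA 5, 4 were called higher. Gstt3 averaged 2.21 ± 0.23 and Gsta1, Mgst2 and Gsto1 -3.57 ± 0.35, -3.29 ± 0.31 and -3.12 ± 0.20. Nqo1, a target of both NRF2 and the aryl hydrocarbon receptor, was not called and varied from -1.03 to 1.48. Of 28 retinoid genes, 15 were called lower (53.6%). Rbp4, the retinol carrier made in liver, averaged -5.29 ± 0.22 and Rxrg -5.02 ± 0.33. Aldh1a1, which makes retinoic acid, had -2.85, -2.66, -3.49, -3.34 and -2.99, lowest in DMBA 3. Rdh12, a retinal reductase, was called higher at 1.71 ± 0.82, and Dhrs3 at 1.02 ± 0.34 had means of 0.95, 0.94 and 0.98 without DMBA 2, DMBA 3 and DMBA 5, so that 1 gene of the list was then called higher.

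Among other nuclear receptors, 5 of 35 were called higher (14.3%) and 11 lower (31.4%). Esr1, the oestrogen receptor alpha, had 3.11, 2.86, 3.38, 3.40 and 2.17 (adjusted p = 1.97e-05), lowest in DMBA 5, although its features differed widely. The means of its 11 features ran from 0.27 to 3.49. In the untreated tumours of the other table Esr1 averaged 0.29 ± 0.16, within that range of feature means. The gap between the tables was not tested. Vdr, the vitamin D receptor, averaged 1.66 ± 0.63, Nr4a1 1.87 ± 0.18 and the clock component Nr1d2 1.69 ± 0.18. Nr5a2, Nr1i2 and Nr1h4, receptors known from liver and gut, averaged -4.36 ± 0.19, -3.39 ± 0.69 and -3.27 ± 0.25.

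Ion and water transport genes reached the highest mean ratio of the 38 pathway lists. Of 54, 17 were called higher (31.5%) and 13 lower (24.1%), with a list median of 0.07. Beside Gabrp and Ano1, the water channel Aqp5 had 4.06, 3.73, 4.64, 4.20 and 3.90. Slc12a2, the basolateral chloride loader NKCC1, had 3.75, 3.90, 3.87, 3.81 and 4.10. DMBA 3 was the highest tumour for Aqp5 and DMBA 5 for Slc12a2. Chloride, potassium and sodium carriers of secretory epithelia that were named after their values were seen included Kcnk1 at 3.40 ± 0.24, Kcnn4 at 3.33 ± 0.16, Clic6 at 3.51 ± 0.21 and Fxyd3 at 3.13 ± 0.41. Other members of the same families were low. Aqp3, the water and glycerol channel of skin and kidney, had -4.38, -3.53, -4.50, -4.89 and -4.30, with DMBA 2 nearest the reference. Clic5 averaged -3.40 ± 0.27, Aqp1 of red cells and endothelium -2.47 ± 0.38, and the calcium pump Atp2b2, which exports calcium into milk, -2.97 ± 0.53. Cftr, also chosen after its values were seen, averaged -2.11 ± 0.44.

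**Figure D2:**
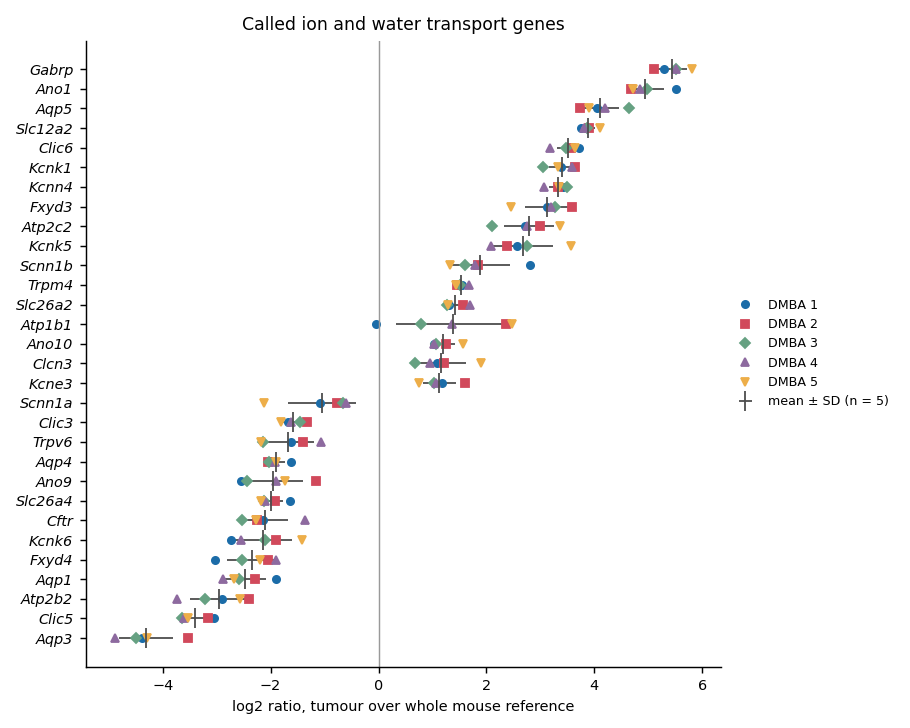
Log2 ratio of tumour over whole mouse reference (x axis) for the 30 called genes of the ion and water transport list (rows, 17 higher and 13 lower), with 1 coloured symbol per DMBA-treated tumour and a tick with a bar for the mean ± SD of 5 tumours. Apart from Atp1b1, whose lowest tumour is at -0.050, all 5 tumours of a gene lie on the same side of 0.

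Tight junction and polarity genes were called higher in 13 of 34 cases (38.2%) and lower in 2 (5.88%), and the list had the highest median of the 38 pathway lists, 0.58. Marveld3, a membrane protein of tight junctions, had 3.25, 3.50, 3.48, 3.50 and 3.48, with DMBA 1 just below the rest. Cldn3, a sealing claudin, had 2.71, 2.60, 2.69, 2.68 and 2.76. Both had a very narrow spread. The junction scaffold Cgnl1 averaged 2.80 ± 0.21 and Marveld2, tricellulin, 2.21 ± 0.27. Cldn11, the claudin of myelin and Sertoli cells, averaged -3.57 ± 0.41, and Cldn15 -1.30 ± 0.12.

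Mucins and O-glycan enzymes divided, with 9 of 44 called higher (20.5%) and 15 lower (34.1%). Muc15 had 4.35, 4.93, 4.36, 4.36 and 4.41. Muc20, also a membrane mucin, had 3.89, 4.70, 3.88, 3.91 and 3.69. DMBA 2 was the highest tumour for both. Galnt3, which starts O-glycans, had 3.84, 3.77, 3.54, 3.74 and 4.50, highest in DMBA 5. Muc13 and Muc16 averaged -3.29 ± 0.20 and -2.74 ± 0.30, and Galnt14 -2.97 ± 1.02, with DMBA 5 far below the others. Its 2 features differed, and with 1 feature per gene its mean was -1.28 and the call was lost (limma, adjusted p = 0.143). The membrane mucins Muc1 and Muc4, well known from human breast tumours and named after their values were seen, averaged -0.020 ± 0.56 and -0.97 ± 0.36 and were not called.

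Membrane proteases and inhibitors had 9 of 39 called higher (23.1%) and 16 lower (41%). The higher ones included serine proteases and an inhibitor of such enzymes. The protease Tmprss13 had 3.02, 3.08, 2.95, 2.81 and 3.30. The inhibitor Spint2 had 3.14, 2.30, 3.25, 2.94 and 3.46. DMBA 5 was the highest tumour for both. Matriptase, the product of St14, averaged 1.85 ± 0.30. Wfdc18, a whey acidic protein relative, averaged 2.49 ± 0.21. Csta1, Serpinb1a, Tmprss6 and Tmprss4 averaged -4.10 ± 0.15, -3.71 ± 0.64, -3.50 ± 0.13 and -3.07 ± 0.41.

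Epithelial transcription factors had the largest number of called-higher members, 20 of 52 (38.5%), with 14 lower (26.9%). Gata3, which maintains luminal identity, had 4.70, 4.24, 4.29, 4.69 and 4.004, lowest in DMBA 5. Elf5, the alveolar factor downstream of prolactin, had 4.02, 4.10, 4.002, 3.78 and 4.30, highest in DMBA 5. Tfap2c and Hey1 completed the 4 highest. Sox10 and Foxi1, named after their values were seen, averaged 3.21 ± 0.39 and 3.26 ± 0.38. Sox2, a stem cell and neural factor read by 1 feature, had -4.45, -5.25, -4.79, -7.13 and -4.29, lowest in DMBA 4. In the 6 untreated tumours of the other table Sox2 averaged 0.06 ± 0.21, a gap that was not tested. Whether a feature of that table gave signal for Sox2 is not known. Id4, an inhibitor of basic helix-loop-helix factors, had -4.22, -4.79, -5.88, -5.45 and -5.20, nearest the reference in DMBA 1. Foxa2 averaged -4.66 ± 0.37 and Id1 -3.42 ± 0.17.

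Homeobox genes outside the Hox clusters were mostly low, with 24 of 42 called lower (57.1%) and 7 higher (16.7%). The higher ones included members of the Iroquois family. Irx1 had 2.84, 3.20, 3.39, 2.61 and 2.47. Irx2 had 3.01, 3.02, 2.86, 2.54 and 2.54. Both were above the reference in every tumour. Irx5 averaged 2.09 ± 0.35 and Irx3 2.003 ± 0.17. Irx4, named after its value was seen, was at -1.92 ± 0.33. The lowest were Lhx2, Meis2, Pitx1 and Dlx2, with means from -4.21 to -3.24.

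S100 proteins and annexins had 3 of 25 called higher (12%) and 10 lower (40%). The lowest was S100g, the intestinal calcium-binding protein, at -5.94, -5.54, -5.85, -5.87 and -5.77, much alike in the 5 tumours. S100b averaged 1.78 ± 0.79 and S100a1 1.27 ± 0.34, while Anxa9 at 1.01 ± 0.16 had means of 0.96 and 0.996 without DMBA 2 and without DMBA 3.

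Early secretory pathway genes were called about as often higher as all genes, and none was called lower. Of 47 genes for entry into the endoplasmic reticulum and vesicle coats, 43 were not called, 4 were called higher (8.51%) and 0 lower, and the list median was 0.48; 13 had a negative mean, 8 of them at an unadjusted p under 0.05 in limma. Sec11c, a signal peptidase subunit, had 1.49, 1.45, 1.54, 1.78 and 2.28, highest in DMBA 5. Srp68 of the signal recognition particle averaged 1.18 ± 0.30. The proteasome list had a median of -0.0008 with 33 of 36 not called. Its exceptions included 2 interferon-inducible catalytic subunits. Psmb8 had 2.35, 4.12, 3.18, 3.08 and 3.44. Psmb9 had 2.24, 4.16, 2.95, 2.95 and 3.37. DMBA 1 was the lowest tumour and DMBA 2 the highest for both. Psmb10, the third such subunit, was not called at 0.50 ± 0.43. Of 41 lysosome and autophagy genes, 35 were not called; Ctsh averaged 1.42 ± 0.21, and Ctsk, the osteoclast cathepsin, -3.28 ± 0.49.

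Innate sensing genes were called higher in 9 of 45 cases (20%) and lower in 4 (8.89%). Tlr3, the endosomal sensor of double-stranded RNA, had 2.96, 2.91, 3.17, 3.23 and 3.25. Tlr6, a sensor of bacterial lipopeptides, had 2.53, 2.64, 2.42, 2.76 and 2.38. Both were above the reference in every tumour. Tnfrsf11a, the receptor RANK of mammary epithelium, averaged 1.92 ± 0.17. Cd14, a co-receptor for endotoxin, had 1.98, 2.43, 3.31, 0.48 and 1.45, highest in DMBA 3 and lowest in DMBA 4. The RANK ligand gene Tnfsf11 averaged -1.37 ± 0.39, Il18 -2.01 ± 0.45 and Ripk3, which executes necroptosis, -1.99 ± 0.44.

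Complement and acute phase genes had 18 of 35 called lower (51.4%) and 3 higher. Cfi had -5.74, -5.61, -6.80, -6.43 and -6.89, far below the reference in every tumour. Hc, the gene for complement C5, averaged -5.24 ± 0.26 and Mbl2 -3.94 ± 0.26, and all 3 are made mainly in liver. Untreated tumours of the other table averaged -5.44 for Hc and -0.19 for Mbl2, with no test and with the signal for Mbl2 unknown. The higher ones were C5ar2, Lcn2 and Lbp. Lcn2, the iron-binding lipocalin, had 2.72, 3.07, 3.03, 2.48 and 3.08, lowest in DMBA 4. Lbp, which carries endotoxin, had 2.02, 2.61, 2.25, 2.17 and 1.97, highest in DMBA 2. Of 51 chemokines and receptors, 7 were called higher (13.7%) and 15 lower (29.4%). Xcl1 averaged 1.90 ± 0.26, Ccl5 1.80 ± 0.46 and Cxcl1 1.33 ± 0.53, and the platelet chemokines Ppbp and Pf4 -4.09 ± 0.50 and -3.90 ± 0.50. In the TNF superfamily and checkpoint list 24 of 31 were not called. Tnfrsf18, known as GITR, had 2.43, 2.59, 2.26, 2.33 and 2.60, above the reference in every tumour. Tnfsf13, known as APRIL, averaged 1.85 ± 0.70. Cd274, which encodes PD-L1 and was named after its value was seen, was at 0.77 ± 0.71 and not called. Macrophage and lymphocyte markers are given with the other cell markers above, and their part was not tested.

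Imprinted genes had the lowest median of the 38 pathway lists, -2.12, with 23 of 29 called lower (79.3%) and tumour medians from -2.27 to -1.95. Mest had -4.88, -4.61, -5.26, -5.44 and -5.43, nearest the reference in DMBA 2. The non-coding RNAs Rian and Meg3 of one cluster averaged -4.18 ± 0.20 and -4.14 ± 0.30. Dlk1 of the same cluster, named after its value was seen, was at -3.74 ± 0.18, Igf2 at -2.12 ± 0.22 and H19 at -2.68 ± 0.21. Dcn is also a fibroblast marker and averaged -4.09 ± 0.48. Phlda2, a maternally expressed gene that restrains growth in placenta, went the other way at 2.96, 3.28, 2.92, 2.92 and 2.41, lowest in DMBA 5. Igf2r at 1.03 ± 0.39 was the other called-higher gene, with means of 0.95 and 0.91 without DMBA 3 and without DMBA 4. Many imprinted growth genes are known to be expressed in the fetus and to fall silent after birth, and the age of the reference mice is not stated.

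Histone and DNA modifying enzymes had 9 of 52 called higher (17.3%) and 2 lower (3.85%). Hdac11 had 2.37, 2.33, 1.89, 2.42 and 2.72, lowest in DMBA 3. Cbx7, a Polycomb chromodomain protein, had 1.86, 1.82, 1.91, 1.91 and 1.76, much alike in the 5 tumours. Hdac8 averaged 1.58 ± 0.23 and Smarca1, a chromatin remodeller of the ISWI family, -3.73 ± 0.32. Hdac9 at -1.09 ± 0.22 had features on both sides of 0, and its mean was -0.61 with the median of its features and 0.39 with 1 feature per gene. In the clock list 4 of 17 were called higher (23.5%), and its lower count was 1 (5.88%), or 2 without DMBA 3, DMBA 4 or DMBA 5. Hlf, an output factor of the clock, had 2.79, 3.37, 2.84, 3.09 and 1.86, lowest in DMBA 5. Dbp, another output factor, had 2.83, 2.68, 2.20, 1.96 and 2.13, lowest in DMBA 4. Ciart averaged 1.95 ± 0.54 and Per3 1.65 ± 0.40. Nfil3, which opposes Hlf and Dbp on shared sites, had -2.62, -2.64, -2.53, -2.98 and -1.98, nearest the reference in DMBA 5. The time of day of collection is not stated.

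**Figure D3:**
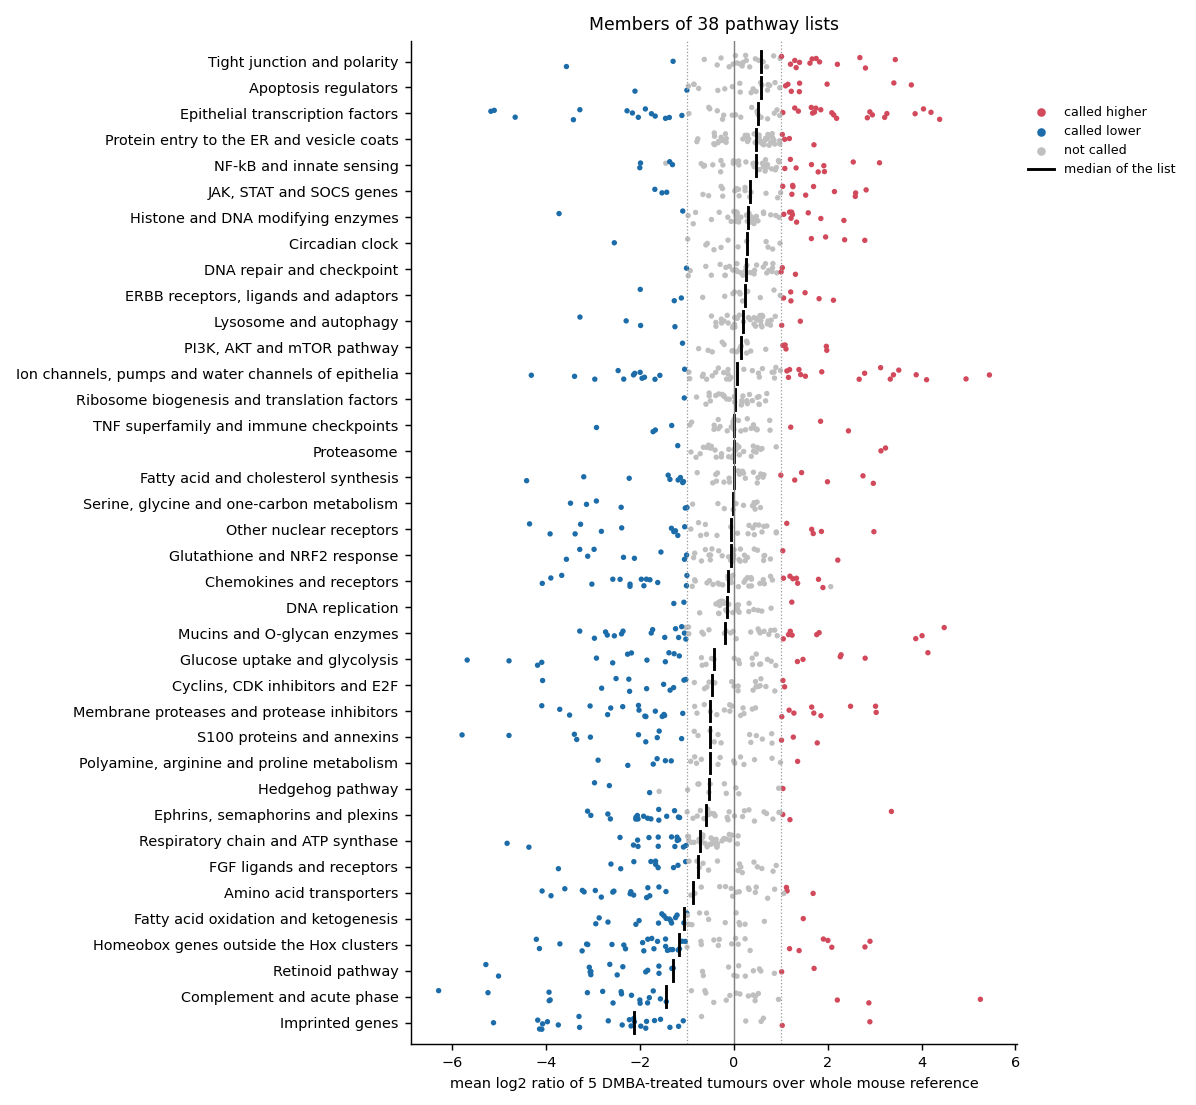
Mean log2 ratio of 5 DMBA-treated tumours over whole mouse reference (x axis) for each measured member of 38 pathway lists (rows, ordered by list median from top to bottom), with points coloured by call, a black bar for the list median and dotted lines at -1 and 1. Tight junction genes have the highest median, 0.58, and imprinted genes the lowest, -2.12. The shares of all tested genes were 8.28% for higher and 18.8% for lower calls.

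The tumours resembled each other for most genes. The median SD over the 5 tumours was 0.32, and 906 genes, 4.75% of those tested, had an SD of 1 or more. Among called-higher genes with a mean of at least 2, the smallest SDs were those of Stac2, at 3.30, 3.33, 3.42, 3.34 and 3.35, Ttc39a at 2.62 ± 0.057 and Cldn3. The others of the 10 steadiest were Igfals, Bnipl, Elmo1, Marveld3, Mansc1, Ltbp2 and Yipf2, with SDs of at most 0.11.

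The 15 most variable genes were all read by a single feature. Nrg2, another neuregulin, had 5.25, 4.62, 0.25, -4.56 and -4.09, so that DMBA 1 and DMBA 2 were far above the reference and DMBA 4 and DMBA 5 far below. Usp43, a ubiquitin protease, had 6.78, 5.54, 1.55, 1.10 and 0.92. It was high in DMBA 1 and DMBA 2 only, and its adjusted p of 0.0257 became 0.0526 without DMBA 1 and 0.0849 without DMBA 2. Ccl8, a monocyte chemokine, followed a similar order at 4.36, 4.95, -0.22, 2.16 and -0.94 and was not called, with an adjusted p of 0.0382 without DMBA 5. Clca2 had -2.91, 1.06, 1.79, -2.26 and 3.77, below the reference in DMBA 1 and DMBA 4 and above it in the others.

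In 10 of the 15, namely Dnali1, Ninj2, Rdh16f2, Sh2d4b, Olfr1453, Btbd35f1, Gabra6, Vmn1r14, Ugt2b5 and Vmn1r35, a single tumour lay far from the rest. Dnali1 was at 6.60 in DMBA 2 and between -1.83 and -0.90 in the others, and Ninj2 at -6.98 in DMBA 2 and between 0.25 and 0.78 in the others. Rdh16f2 had an adjusted p of 0.0309, or 0.0537 without DMBA 4. Olfr1378 made up the 15. The signal behind these single features is not known here.

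Gene position gave a further difference between tumours. For each tumour, the deviation of a gene was taken from its mean in the other 4 tumours, and the median was formed per chromosome. In DMBA 5 the medians were 0.18 on chromosome 5 (1144 genes), 0.15 on chromosome 2 (1599 genes) and 0.11 on chromosome 14 (696 genes), and -0.12 on chromosome 18 (456 genes). On its other chromosomes they lay between -0.07 and -0.01. No other tumour had such a step: the medians on chromosomes 2, 5 and 14 lay between -0.09 and 0.06 in DMBA 1 to DMBA 4. Because each deviation is taken from the other 4 tumours, a high value in 1 tumour lowers those of the rest. Chromosome 5 had the lowest median of all chromosomes in each of DMBA 1 to DMBA 4. By the gap rule given with the flagged results, only chromosome 6 was flagged, in DMBA 2, and DMBA 5 was set apart on no chromosome. DMBA 2 lay above 0 on every chromosome, between 0.01 and 0.15. The 4 chromosomes were singled out after these values were seen, and no test was made. For scale, single untreated tumours in their own table had chromosome medians from -0.27, on chromosome 13, to 0.16, on chromosome 16.

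**Figure D4:**
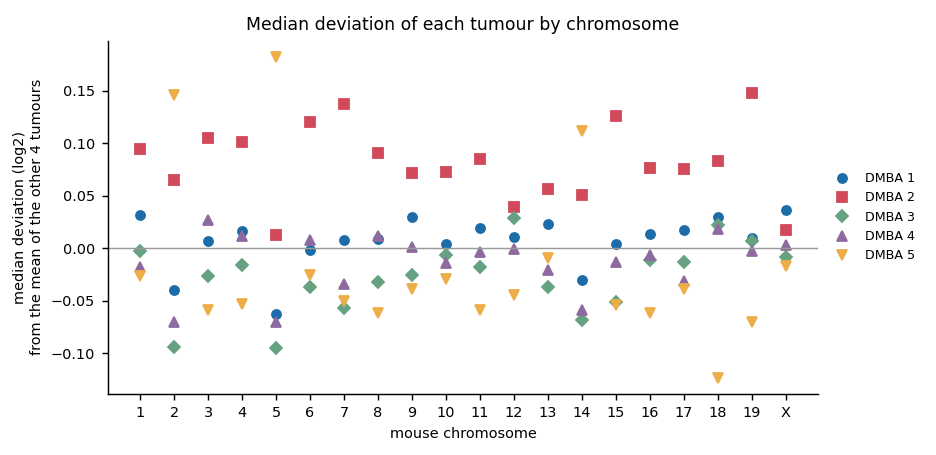
Median over genes of the deviation of each DMBA-treated tumour from the mean of the other 4 tumours (y axis, log2 scale) for each mouse chromosome (x axis), with 1 coloured symbol per tumour. DMBA 5 lies at 0.18, 0.15 and 0.11 on chromosomes 5, 2 and 14 and below 0 on all others.

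The shift in DMBA 5 ran along chromosomes 2 and 5 and was less even on chromosome 14. These chromosomes were picked by medians of the same values, so the counts below describe the shift and are no separate support. In blocks of about 100 genes in order, DMBA 5 was above 0 in 11 of 11 blocks of chromosome 5, 16 of 16 of chromosome 2 and 6 of 7 of chromosome 14, against 30 of 150 blocks on chromosomes other than 2, 5, 14 and 18. The blocks of chromosome 14 ran from -0.012 to 0.20. On chromosome 18 DMBA 5 was above 0 in 0 of 5 blocks, which ran from -0.25 to -0.084. Where only genes with an SD of at most 0.25 in the other 4 tumours were kept, the medians were 0.27 on chromosome 5 with 77.2% of 527 genes above 0, 0.23 on chromosome 2 with 72.5% of 688, and 0.20 on chromosome 14 with 67.1% of 304. The median of chromosome 18 became -0.05, within the range of the other chromosomes of DMBA 5, -0.091 to -0.0005. Both restrictions were added after the data were seen. A difference in chromosome number was not measured here, and the cause was not tested.

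**Figure D5:**
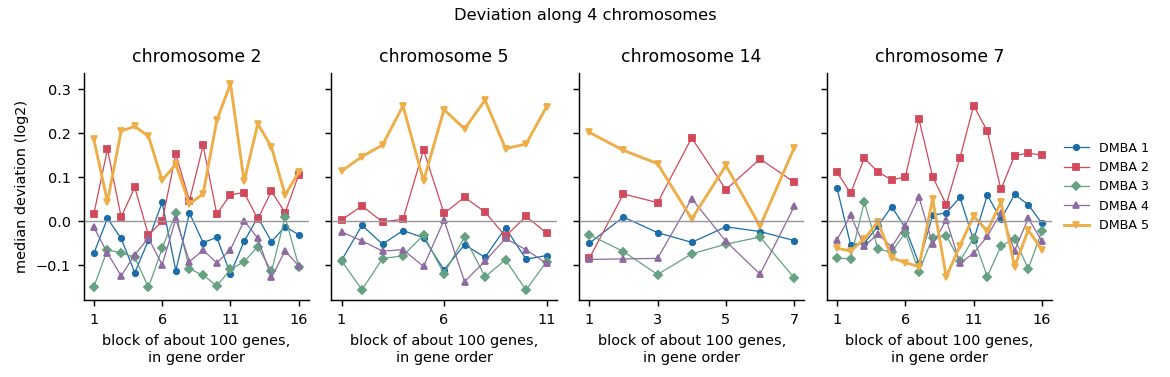
Median deviation of each DMBA-treated tumour from the mean of the other 4 (y axis, log2 scale) in consecutive blocks of about 100 genes (x axis, in gene order) on chromosomes 2, 5, 14 and, for comparison, 7. DMBA 5 (thick line) stays above 0 in all 16 blocks of chromosome 2 and all 11 of chromosome 5, and does not on chromosome 7.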

How the data were processed

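The 5 DMBA-treated tumours and, for values set beside them, the 6 untreated tumours were used as deposited in 2 tables of log ratios, 1 per array platform. The log2 ratios were made by the authors; background correction, normalization, filters, log base and direction are not given in the sources used here. Array medians near 0 show centring, base 2 was assumed from the range of values, and tumour over reference was read from organ genes as the likely direction. No value was missing. Exact zeros, 427 to 1035 per array, were kept.

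Features with 1 gene symbol in the platform annotation were used (56 had several and 11511 none), and 33517 were matched to a gene table of GRCm38.p6, with 0 symbols changed. Features of a gene were averaged per array; 8343 genes had several. R 4.3.3 and limma 3.58.1 gave a two-sided moderated test of each gene's mean against 0 (lmFit, eBayes), with Benjamini-Hochberg adjustment over 19087 genes. A fold value is the mean turned back from the log2 scale, without its sign. The code was tested on simulated data.

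The gene lists and the samples were chosen with earlier results of these data known. Named genes are Erbb2, the 25 highest and 15 lowest called genes, the 15 with the largest SD, the 10 steadiest called higher with a mean of at least 2, and up to 4 called higher and 4 called lower per pathway list. Genes on the milk, organ and cell marker lists, genes whose symbols start with Krt, Krtap, Col, Csn or Sprr (keratin, collagen, casein and cornified envelope genes), and Gm and Rik gene models were left out of these rankings, but could be named as members of a pathway list. Any other gene named was chosen after its values were seen. Lists are described by counts and medians with no test of a list. DMBA-treated and untreated tumours lie in different tables, so group and table cannot be told apart and no test was made between them. Alternatives changed the averaging of features, the scaling of arrays, zeros, the moderation, the threshold and the tumours used.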

Additional observations from a re-analysis of the deposited data

Results flagged for a closer look

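A tumour was set apart where its gap to the nearest of the other 4 tumours exceeded 0.710 of the whole range, Dixon's 95% critical value for 5 samples. Chance flags about 1 in 20 groups; 32 of 279 named genes, 1 of 38 lists and 1 of 20 chromosomes met it, and the named genes include those picked for a large SD. No cause was tested for any of them.

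DMBA 5 was apart in 12 genes. It was lower than the others in C5ar2 (3.74), Tfap2c (3.71), Aldoc (2.91), Flvcr2 (2.75), Socs5 (1.31), Fads3 (-3.22), Galnt14 (-4.80), Cd200 (-3.30) and Gabra6 (-6.30), and higher in Elovl3 (1.07), Nr1i2 (-2.20) and Ciart (2.89).

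DMBA 2 was apart in Muc20 (4.70), Muc15 (4.93), Dnali1 (6.60), Sostdc1 (-5.54), Hhip (-1.65) and Plxna2 (-2.58), where it was the highest tumour, and in Ninj2 (-6.98), Rdh16f2 (-9.71), Btbd35f1 (-6.51), Arf1 (0.55) and Hdac8 (1.18), where it was the lowest. It was also the highest on chromosome 6, with a median deviation of 0.12.

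DMBA 1 was the lowest tumour in Sh2d4b (-6.41), Ugt2b5 (-10.7), Vmn1r35 (-5.02) and Marveld3 (3.25). DMBA 3 was the lowest in Olfr1453 (-5.75), Vmn1r14 (-5.91) and Shh (-3.05), and the highest in Ercc2 (3.03) and in the median of the apoptosis list (0.74). DMBA 4 was the lowest in Bik (1.38).

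Hdac9, a histone deacetylase, averaged -1.09 in DMBA-treated tumours, all below 0, while the untreated tumours of the other table lay between 0.25 and 0.47. The difference was not tested, and the Hdac9 features of the DMBA table lay on both sides of 0.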

How the results depend on the processing

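The counts of genes called ranged from 1430 to 1873 higher and from 3333 to 3615 lower over 13 alternatives, all within 1.5 times the values given, and 238 of 267 called named genes kept direction and call in every one. Without single tumours the number called higher lay between 1553 and 1613 and the number called lower between 3520 and 3615. No paired analysis was possible because all 5 tumours form a single group; the shared number of DMBA 3 and DMBA 4 could not be estimated as a random block (0 genes gave an estimate), so that alternative was not run. Depth is unknown, and no signal values limit or support single features.

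With 1 feature per gene, list medians became 0.51 for ERBB, 0.31 for PI3K, -0.75 for Hedgehog, 0.41 for apoptosis, 0.16 for ribosome biogenesis, -0.15 for polyamines, -0.91 for retinoids, 0.0776 for nuclear receptors, 0.86 for tight junctions, -0.86 for homeobox, 0.15 for TNF and checkpoints, 0.37 for histone enzymes and 0.37 for lysosome, and that of mucins turned from -0.18 to 0.30. Genes called higher became 1 for FGF, 1 for cyclins, 5 for repair, 5 for amino acid transporters, 4 for retinoids, 8 for nuclear receptors and 5 for S100, and genes called lower 2 for PI3K, 2 for repair, 4 for apoptosis, 2 for proteasome, 1 for histone enzymes and 2 for the clock. With the median of features, 1 FGF and 1 cyclin gene were higher and 1 histone gene lower, and medians were 0.41 for apoptosis, -0.37 for polyamines and 0.31 for lysosome. Tested against 1.5-fold, 0 cyclin and 1 imprinted genes were higher and 2 TNF and checkpoint genes lower. With arrays centred on the median gene, 0 repair and 1 apoptosis genes were lower and 2 polyamine genes higher, and after quantile normalization 1 apoptosis gene was lower. With DMBA 3 and DMBA 4 averaged, 0 repair genes and 2 clock genes were lower and 1 imprinted gene higher.

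Leaving out single tumours, genes called higher ranged from 3 to 5 for PI3K, 0 to 1 for FGF, 0 to 2 for Hedgehog, 1 to 3 for cyclins, 1 to 3 for repair, 1 to 2 for polyamines, 2 to 4 for glutathione, 1 to 2 for retinoids, 1 to 2 for imprinted genes and 1 to 3 for lysosome. Genes called lower ranged from 0 to 2 for repair, 1 to 2 for ribosome biogenesis, 2 to 4 for TNF and checkpoints and 1 to 2 for the clock. Medians ranged from 0.0457 to 0.21 for PI3K, -0.64 to -0.39 for polyamines, -0.28 to 0.0688 for nuclear receptors, 0.53 to 0.63 for tight junctions, -0.0705 to 0.0805 for TNF and checkpoints and 0.19 to 0.25 for lysosome. The cause was not tested for any of these.

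Among single genes, leaving out tumours moved the mean across 0: it ranged from -0.94 to 1.51 in Nrg2, -1.52 to 0.58 in Dnali1, -1.37 to 0.57 in Ninj2, -1.36 to 0.57 in Sh2d4b, -0.98 to 0.999 in Olfr1453, -1.65 to 0.29 in Btbd35f1, -1.36 to 0.40 in Gabra6, -1.05 to 0.68 in Vmn1r14, -0.58 to 1.09 in Clca2 and -1.04 to 0.69 in Vmn1r35. With DMBA 3 and DMBA 4 averaged Olfr1453 was at 0.0078, and with 1 feature per gene Otc was at 0.006, Hdac9 at 0.39, Slc38a4 at -5.49 and St14 at 2.80. Tested against 1.5-fold, the calls of Usp43, Rdh16f2, Myc, Cdkn2a, Ercc2, Slc7a5, Elovl3, Pdcd1lg2, Cd200 and Igf2r were lost. In DMBA 5, with only genes of an SD of at most 0.25 in the other tumours, the medians were 0.27, 0.23, 0.20 and -0.0496 on chromosomes 5, 2, 14 and 18, and without single other tumours the median of chromosome 18 ranged from -0.13 to -0.0925. That restriction and the leaving out of tumours for chromosomes were chosen after seeing the data.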

Other observations

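Some of the 25 highest genes had means that stood far from those of the untreated tumours in the other table, as values with no test. The 25 were picked for high means in DMBA-treated tumours, a choice that by itself favours lower untreated means. Bcl2l14, a BCL2 family member, averaged 3.90 ± 0.16 (SD, n = 5) in DMBA-treated tumours and 1.42 ± 0.81 (SD, n = 6) in untreated tumours. Itprid1 averaged 4.05 ± 0.49 in DMBA-treated and 1.67 ± 0.93 in untreated tumours. Slc28a3, the nucleoside transporter, averaged 4.16 ± 0.95 in DMBA-treated and 2.18 ± 0.73 in untreated tumours. Galnt3 went the other way, with 3.88 ± 0.36 in DMBA-treated and 4.62 ± 0.35 in untreated tumours. Table and treatment cannot be told apart.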
